A study of Mus musculus with 2 samples.

Results

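The genes described here are 30 of the 32285 genes in the single-cell tables of mouse knee articular cartilage: 18 immediate early genes and 12 heat shock and chaperone genes. They were chosen by symbol, and each symbol matched 1 row of the tables. The immediate early genes are Fos, Fosb, Jun, Junb, Jund, Atf3, Egr1, Egr2, Egr3, Ier2, Ier3, Dusp1, Btg2, Zfp36, Nr4a1, Klf2, Klf4 and Klf6. The chaperone genes are Hspa1a, Hspa1b, Hspa8, Hsph1, Dnaja1, Dnajb1, Hspb1, Cryab, Hspe1, Hspd1, Hsp90aa1 and Bag3. All 30 had UMIs (unique molecular identifiers, the counted molecules) in both libraries.

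The study compared wild-type (WT) mice after DMM, surgical destabilisation of the medial meniscus that leads to osteoarthritis, with WT mice after sham surgery. Each group is 1 library of cells pooled from 3 mice, so the animals cannot be separated. Knee joint cartilage was digested in 4 rounds of 20 min at 37 °C with type I collagenase and Dispase II, and live cells, which took up Calcein AM and kept out DAPI, were sorted after blood cells (CD45 or Ter119) and endothelium (CD31) had been gated away. Every cell of both groups went through this digestion, and no undigested sample is among the data used here, so what the digestion added to any level was not tested.

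Immediate early genes are transcribed within minutes of a signal, from promoters that are already bound by factors such as the serum response factor and CREB, and need no new protein for it. Fos, Jun and Atf3 family proteins pair into the AP-1 transcription factors, and several other members of the group shut the response down again. Heat shock genes are switched on by heat shock factor when unfolded proteins take up the chaperones of the cell, which fold, refold or hold other proteins. In cartilage, AP-1 is known for its part in cytokine and matrix protease expression, and both groups are known to be induced when tissue is taken apart into single cells.

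The promoters printed here are a choice, not a full set. They belong to genes whose ratios of DMM to sham kept 1 direction across nearly every connective tissue population. They are shown for the response elements they carry. Jund, Klf2, Hsph1 and Dnaja1 kept 1 direction as well and are not printed. Each printed window is the 250 bases before a RefSeq transcription start (build GRCm38.p6), on the gene's strand. For a gene with several starts, the window with the most motif matches is printed. The windows of Egr2 and Dusp1 lie inside the annotated gene span. Capitals mark matches on either strand to the CArG box (bound by serum response factor), to TGACGTCA (the CREB element) or to the heat shock element. Heat shock elements were searched as GAANNTTC and as a longer form, GAANNTTC followed by NNGAA, which holds the short one.
Egr2, chr10:67537316-67537565, plus strand: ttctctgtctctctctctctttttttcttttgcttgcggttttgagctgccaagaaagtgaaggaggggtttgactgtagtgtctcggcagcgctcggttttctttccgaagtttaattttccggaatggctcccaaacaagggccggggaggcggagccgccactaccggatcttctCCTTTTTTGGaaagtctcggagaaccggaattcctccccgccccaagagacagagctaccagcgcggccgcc
Dusp1, chr17:26508473-26508722, minus strand: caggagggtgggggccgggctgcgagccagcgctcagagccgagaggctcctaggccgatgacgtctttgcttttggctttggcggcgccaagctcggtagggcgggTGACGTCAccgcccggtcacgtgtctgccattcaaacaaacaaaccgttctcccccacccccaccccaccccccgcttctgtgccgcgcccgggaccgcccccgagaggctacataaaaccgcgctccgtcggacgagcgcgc
Hspa1a, chr17:34972157-34972406, minus strand: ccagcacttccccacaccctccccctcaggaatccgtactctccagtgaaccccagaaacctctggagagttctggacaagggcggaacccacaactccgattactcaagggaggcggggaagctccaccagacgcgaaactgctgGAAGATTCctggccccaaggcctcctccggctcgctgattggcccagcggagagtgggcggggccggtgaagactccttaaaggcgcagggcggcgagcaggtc
Hspa1b, chr17:34959239-34959488, minus strand: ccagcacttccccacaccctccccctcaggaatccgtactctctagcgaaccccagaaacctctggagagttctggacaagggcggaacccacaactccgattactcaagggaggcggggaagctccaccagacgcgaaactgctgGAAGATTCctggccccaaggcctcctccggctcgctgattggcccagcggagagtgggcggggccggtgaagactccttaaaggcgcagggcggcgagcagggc
Hspe1, chr1:55087898-55088147, plus strand: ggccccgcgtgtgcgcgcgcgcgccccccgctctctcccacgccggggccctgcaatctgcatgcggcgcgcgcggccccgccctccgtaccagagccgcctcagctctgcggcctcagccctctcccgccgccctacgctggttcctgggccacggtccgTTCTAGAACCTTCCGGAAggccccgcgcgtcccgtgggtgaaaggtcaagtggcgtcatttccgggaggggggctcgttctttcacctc

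Egr1, Egr3, Ier2, Hspa8, Hsp90aa1 and Cryab had no promoter window, so their elements are not known here. The other 24 members had 33 windows. A gene with several windows has more chances to match, so counts of genes are not directly comparable with shares of windows. A CArG box lay in Egr2 and Zfp36 (5 of the 19 immediate early windows), against 1.47% of the 32851 promoter windows of all genes. TGACGTCA lay in Dusp1 and Btg2, against 1.55% of windows. The AP-1 element TGANTCA lay in Bag3 alone, against 6.75%. GAANNTTC lay in Jun and in 6 of the 9 chaperone genes with a window (Hspa1a, Hspa1b, Dnaja1, Hspb1, Hspe1 and Hspd1), against 6.69%. The longer form lay in Hspe1 and Hspd1, against 0.466%. Hspe1 and Hspd1 run in opposite directions from shared bases, and 215 of the 250 bases printed for Hspe1 are also in a window of Hspd1. The windows of Hspa1a and Hspa1b differ at 3 of 250 bases. A match is only a match of letters, and no binding was measured. The transcripts of this pair share 84.3% of aligned positions, but only 49.4% over their last 400 bases, where reads of a 3′ library mostly fall. Reads inside the shared stretch cannot be assigned, so the split between Hspa1a and Hspa1b is uncertain. Dusp1, Hspa8, Dnaja1 and Bag3 each overlap another annotated gene on their strand, mostly small RNA genes in the case of Hspa8 and Dnaja1, and their counts carry that limit.

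The filters left 9529 cells in each library, with a median depth of 7859 UMIs in DMM and 8064 UMIs in sham. The libraries shared 24 barcodes, 17 among the kept cells. Clustering left all 30 members out of the variable genes, so the populations were not built from them. Of 25 clusters, 16 populations had at least 50 cells in each library, and 13 of these were connective tissue, named from marker lists or, where no list fitted, by their leading genes. Clusters of the same name were joined into 1 population. The osteoblast-like population joins a Ptprz1-led cluster (546 DMM and 275 sham cells) and a Car3-led cluster with Dmp1 (81 DMM and 162 sham cells). The fibroblast-like population joins a Ccl7-led cluster (978 DMM and 790 sham cells) and a Pi16-led cluster (343 DMM and 549 sham cells). What such differences in cluster shares add to a ratio was not tested. Cartilage markers were present, the superficial zone chondrocyte-like cluster showing 7 markers of its list and the largest chondrocyte-like cluster 12. There were 1213 DMM and 1593 sham chondrocyte-like cells and 714 DMM and 914 sham superficial zone chondrocyte-like cells. Other tissues were present too: 889 DMM and 338 sham synovial lining fibroblast-like cells, bone and marrow stromal-like cells, and 893 DMM and 1551 sham erythroid-like cells in spite of the sort. The tendon or ligament-like cluster showed 5 markers of its list, but none among its 10 leading genes, which began with Angptl7, Npy, Dmkn and Slurp1. The same list scored best for the clusters led by Sfrp2 and by S100a4, which stayed unnamed. Levels are CPM, the UMIs of a gene scaled to a common UMI total of that population in 1 library. With 1 library per group there is no replicate and no test, and the intervals cover counting error only.

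Most of the immediate early genes were far lower in erythroid-like than in connective tissue cells. In each library 17 of 18 had a lower level in erythroid-like cells than in any of the 13 connective populations, Btg2 being the exception. Fos, a subunit of AP-1, was at 32.7 CPM in DMM and 27.6 CPM in sham erythroid-like cells. Among the 13 connective populations it ran from 381 CPM in superficial zone chondrocyte-like cells to 3249 CPM in the Sfrp2-led cluster (with Cpxm1, Mmp13, Postn and Tnn) in the DMM library. In the sham library it ran between the same populations, from 562 to 4118 CPM. After each cell was thinned to 2000 UMIs, 35.6% of DMM and 37.1% of sham superficial zone chondrocyte-like cells held a Fos UMI (61.3% in DMM and 64.0% in sham unthinned), against 4.23% of DMM and 4.59% of sham erythroid-like cells (18.4% in DMM and 16.6% in sham unthinned). Before thinning, the median depth was 7356 UMIs in DMM and 7096 in sham superficial zone chondrocyte-like cells, against 9296 in DMM and 7760 in sham erythroid-like cells.

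Superficial zone chondrocyte-like cells were the lowest connective population for 9 of the 18 immediate early genes in DMM and 8 in sham. In both libraries these included Fos, Fosb, Junb, Egr1, Egr2, Ier2, Btg2 and Zfp36. Fosb, a Fos relative, was at 243 CPM in DMM and 345 CPM in sham there, against 1918 CPM in DMM and 2185 CPM in sham in the Sfrp2-led cluster. Egr1, a zinc finger transcription factor, was at 301 CPM in DMM and 457 CPM in sham, against 1874 CPM in DMM and 2430.1 CPM in sham in that cluster. The same cells stood at the other end for a few genes. Egr3, a relative of Egr1, was highest there in both libraries, with 111 CPM (95% counting interval 103 to 120.2) in DMM and 110.5 CPM (95% counting interval 103 to 118) in sham. The next population reached 48.0 CPM in DMM (the Sfrp2-led cluster) and 61.9 CPM in sham (the S100a4-led cluster). Klf4, a Krüppel-like factor, was at 1841 CPM in DMM and 1870.1 CPM in sham, first of 13 in DMM and second to fibroblast-like cells (2138 CPM) in sham. Klf2, a Krüppel-like factor that fluid shear induces in endothelium, was second in both libraries with 1048 CPM in DMM and 886 CPM in sham.

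Perivascular-like cells were the highest connective population for 6 immediate early genes in both libraries: Junb, Jund, Atf3, Zfp36, Nr4a1 and Klf2. Atf3, a stress-induced partner of Jun, was at 1132 CPM in DMM and 1078 CPM in sham, and no other connective population passed 509.9 CPM in DMM or 533 CPM in sham. Nr4a1, an orphan nuclear receptor, was at 1027 CPM in DMM and 1095 CPM in sham in these cells. It was lowest in chondrocyte-like cells, with 43.2 CPM in DMM and 46.7 CPM in sham, and nearly as low in hypertrophic chondrocyte-like cells, with 46.0 CPM in DMM and 66.4 CPM in sham. Superficial zone chondrocyte-like cells had 319 CPM in DMM and 395 CPM in sham, so Nr4a1 set them apart from both of these. Zfp36, which speeds the decay of AU-rich mRNAs, was at 731 CPM in DMM and 698 CPM in sham in perivascular-like and 84.0 CPM in DMM and 94.7 CPM in sham in superficial zone chondrocyte-like cells.

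The remaining immediate early genes had other leading populations. Btg2, an antiproliferative partner of mRNA deadenylases, was highest in hypertrophic chondrocyte-like cells at 1484 CPM in DMM and 1621 CPM in sham, and lowest in superficial zone chondrocyte-like cells at 118 CPM in DMM and 159.8 CPM in sham. Unlike most of the group it was also present in erythroid-like cells, at 244 CPM in DMM and 303 CPM in sham. Jund, the least inducible Jun relative, varied least: its highest population was only 1.94-fold above its lowest in each library. It ranged from 1535 CPM in the Msmp-led cluster to 2973 CPM in perivascular-like cells in DMM, and from 1264 to 2449.7 CPM in sham. Among the immediate early genes Nr4a1 varied most in both libraries, 23.8-fold in DMM and 23.4-fold in sham. Jun, the main partner of Fos, was highest in marrow stromal-like cells in DMM (1928 CPM) and in the Sfrp2-led cluster in sham (1932 CPM). Dusp1, a phosphatase that switches off MAP kinases, was highest in fibroblast-like cells in DMM (1097 CPM), and in the S100a4-led cluster (831 CPM) just above fibroblast-like cells (819 CPM) in sham. Ier3, a small protein linked to cell survival, led in the Serpina1e-led cluster at 912 CPM in DMM and 982 CPM in sham. Ier2, a small nuclear protein, led in the Sfrp2-led cluster at 557 CPM in DMM and 523 CPM in sham. Klf6, a Krüppel-like factor, led in marrow stromal-like cells at 648 CPM in DMM and 749.5 CPM in sham. Egr2, a relative of Egr1, was scarce in every connective population and did not pass 41.3 CPM in DMM or 46.3 CPM in sham.

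**Figure D1:**
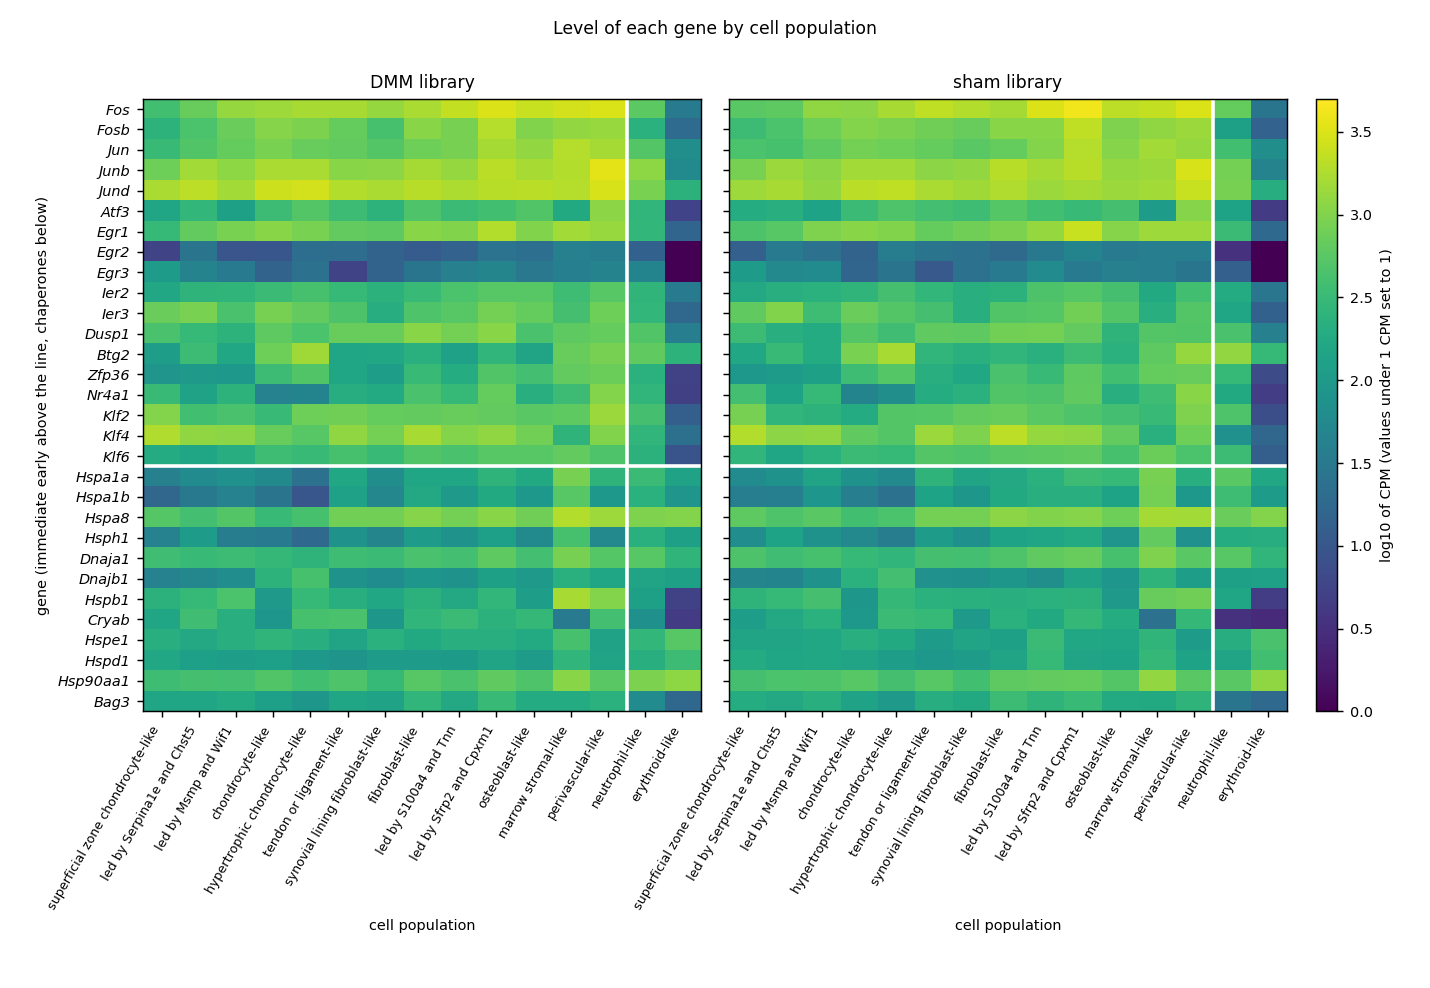
Level of each of the 30 genes (rows) in 15 populations (columns), DMM library left and sham library right, as log10 of CPM. The 13 connective tissue populations stand left of the white line and the neutrophil-like and erythroid-like cells right of it, and most immediate early genes, though not Btg2 and Jund, are dark in erythroid-like cells, where Fos was at 32.7 CPM in DMM and 27.6 CPM in sham, while Hspa8 and Hsp90aa1 stay bright.

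The chaperone genes did not follow that order. Marrow stromal-like cells (114 in DMM, 187 in sham) were the highest connective population for 9 of the 12 in DMM and 6 in sham. This rank is by summed UMIs, to which few cells gave much: at 2000 UMIs per cell, the top 10% of these cells held 43.0% of the chaperone UMIs in DMM and 41.9% in sham. Hypertrophic chondrocyte-like cells were the lowest for 5 in both libraries: Hspa1a, Hspa1b, Hsph1, Dnaja1 and Bag3. Hspa1a, an inducible Hsp70 protein, was at 861 CPM in DMM and 869 CPM in sham in marrow stromal-like cells, against 23.8 CPM in DMM and 57.2 CPM in sham in hypertrophic chondrocyte-like cells. The next connective populations had 259 CPM (perivascular-like, DMM) and 341 CPM (Sfrp2-led, sham). Its near-copy Hspa1b was at 548 CPM in DMM and 836 CPM in sham in marrow stromal-like cells and at 9.65 CPM in DMM and 23.8 CPM in sham in hypertrophic chondrocyte-like cells. Hsph1, the Hsp110 protein that recycles Hsp70, was at 427 CPM in DMM and 651 CPM in sham in marrow stromal-like and 18.4 CPM in DMM and 35.5 CPM in sham in hypertrophic chondrocyte-like cells.

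Some chaperones had an order of their own. Dnajb1, an Hsp40 partner of Hsp70, was highest where Hspa1a was lowest: hypertrophic chondrocyte-like cells had 423 CPM in DMM and 397 CPM in sham, followed by chondrocyte-like cells in DMM and by marrow stromal-like cells with 258 CPM in sham. Dnaja1, another Hsp40 protein, was higher in marrow stromal-like cells (869 CPM in DMM and 979.6 CPM in sham) than in hypertrophic chondrocyte-like cells (253 CPM in DMM and 271 CPM in sham). Of the small heat shock proteins, Hspb1 was highest in marrow stromal-like cells in DMM (1643 CPM) and in perivascular-like cells in sham (793 CPM). Cryab, the other, was lowest in marrow stromal-like cells, with 32.0 CPM in DMM and 23.6 CPM in sham. It was highest in tendon or ligament-like cells in DMM (429.6 CPM) and in hypertrophic chondrocyte-like cells in sham (329 CPM). Bag3, a cochaperone that links Hsp70 to autophagy, was highest in the Sfrp2-led cluster in DMM (323 CPM) and in fibroblast-like cells in sham (348 CPM).

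Hspa8, Hsp90aa1 and the mitochondrial pair were high in erythroid-like cells too, unlike most of the immediate early genes. Hspa8, the everyday Hsp70 protein, was at 1045 CPM in DMM and 1047 CPM in sham there, against 321 CPM in DMM and 384 CPM in sham in chondrocyte-like cells, the lowest connective population. Hsp90aa1, the inducible cytosolic Hsp90, was at 1197 CPM in DMM and 1233 CPM in sham in erythroid-like cells and 356 CPM in DMM and 404 CPM in sham in superficial zone chondrocyte-like cells. The mitochondrial pair Hspe1 and Hspd1, which form the Hsp10 and Hsp60 folding chamber, were present there as well: Hspe1 at 553 CPM in DMM and 427 CPM in sham, and Hspd1 at 339.8 CPM in DMM and 375 CPM in sham. In superficial zone chondrocyte-like cells Hspe1 was at 207 CPM in DMM and 147 CPM in sham and Hspd1 at 158 CPM in DMM and 188 CPM in sham. Hspa1a was at 136 CPM in DMM and 166 CPM in sham in erythroid-like cells, more than the 40.8 CPM in DMM and 60.9 CPM in sham of superficial zone chondrocyte-like cells. Only 6.09% of DMM and 9.69% of sham superficial zone chondrocyte-like cells held an Hspa1a UMI at 2000 UMIs (20.3% in DMM and 23.7% in sham unthinned), against 10.4% of DMM and 9.72% of sham erythroid-like cells. Erythroid-like cells carried Hspa1a at a level of their own, so no expression is read from these shares, and what free RNA adds to the low Hspa1a levels of cartilage cells was not tested.

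The order of the 13 populations was much the same in both libraries. Spearman's rho between the DMM and sham levels had a median of 0.896 over the immediate early genes (lowest 0.720, Egr3) and 0.929 over the chaperones (lowest 0.522, Hspd1). These are descriptions over 13 populations that share a library. The same population was highest in both libraries for 14 of 18 immediate early genes and 7 of 12 chaperones.

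**Figure D2:**
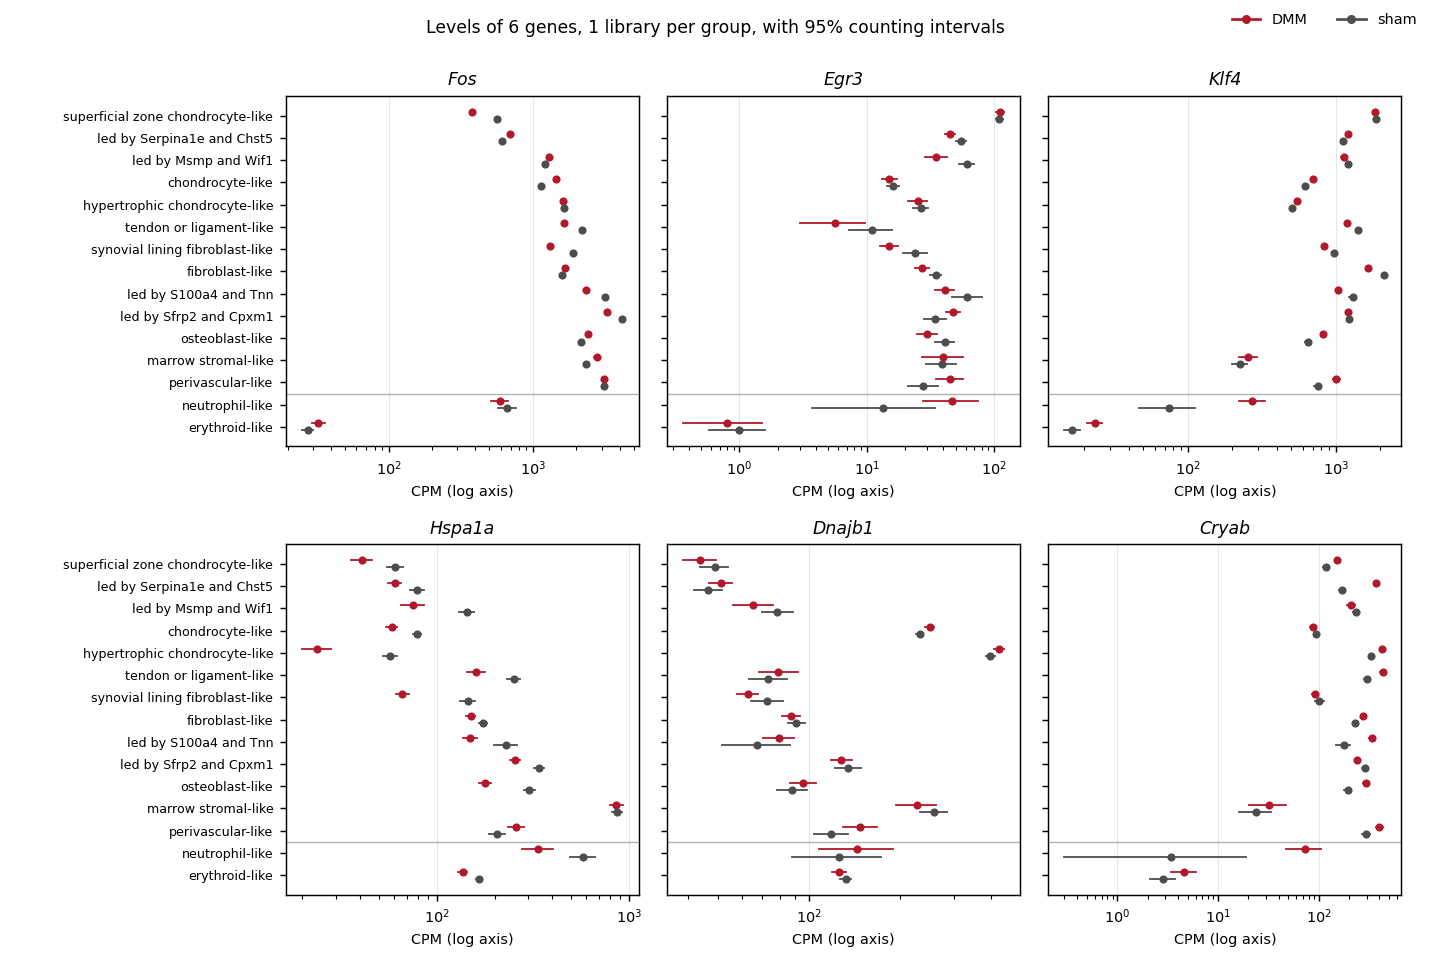
Levels in CPM (log axis) of 6 genes in 15 populations, DMM in red above sham in grey, with 95% counting intervals. Fos is lowest among connective cells in the superficial zone chondrocyte-like cells (381 CPM in DMM, 562 CPM in sham), where Egr3 is highest (111 CPM in DMM and 110.5 CPM in sham), and Hspa1a and Dnajb1 take opposite ends in hypertrophic chondrocyte-like cells.

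Cells of 1 population differed widely in the summed UMIs of each group. At 2000 UMIs per cell, the median sum of the 18 immediate early genes was 16 in DMM and 17 in sham superficial zone chondrocyte-like cells (quartiles 11 to 24 in both). In chondrocyte-like cells it was 23 in DMM (quartiles 16 to 34) and 20 in sham (12 to 30). Perivascular-like cells had 45 in DMM and 38 in sham, and erythroid-like cells 1 in both. Nearly every connective cell carried some: the share of cells with a sum of 0 was at most 4.02%, in sham marrow stromal-like cells. Thinning left out 8 of 714 DMM and 16 of 914 sham superficial zone chondrocyte-like cells, and 58 of 1213 DMM and 32 of 1593 sham chondrocyte-like cells, that held fewer UMIs.

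Among connective populations the chaperone sum was smaller than the immediate early sum, and most uneven in marrow stromal-like cells. The median of the chaperone sum was 4 in DMM and 5 in sham superficial zone chondrocyte-like cells. In marrow stromal-like cells the median was 7 in DMM and 8.5 in sham, but the 95th percentile was 61.0 in both. The top 10% of these cells held 43.0% of the chaperone UMIs in DMM and 41.9% in sham, against 22.3% in DMM and 23.1% in sham superficial zone chondrocyte-like cells. Outside connective tissue, neutrophil-like cells were more uneven still, with 51.0% in DMM and 56.5% in sham (45 DMM and 54 sham cells). In marrow stromal-like cells Hspa1a and Hspa1b were correlated from cell to cell, a pair whose reads in the shared stretch cannot be assigned. Spearman's rho was 0.774 in DMM and 0.632 in sham, over 101 DMM and 174 sham cells. Between the immediate early and the chaperone sums, rho was 0.314 in DMM and 0.403 in sham in marrow stromal-like cells, and 0.124 in DMM and 0.131 in sham superficial zone chondrocyte-like cells. The immediate early sum ran against the mitochondrial share of the cell in connective populations, except in sham perivascular-like cells (rho of 0.043). Its rho was -0.31 in DMM and -0.433 in sham marrow stromal-like cells, and -0.069 in DMM and -0.174 in sham superficial zone chondrocyte-like cells. In marrow stromal-like cells the chaperone sum did so too (-0.242 in DMM and -0.345 in sham), and rose with depth (0.342 in DMM and 0.297 in sham). In sham osteoblast-like cells rho with the mitochondrial share was -0.497 for the immediate early and -0.505 for the chaperone sum. What this adds to the rho between the 2 sums was not tested. Cells of a library are not replicates, and these rho values describe 1 library each.

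**Figure D3:**
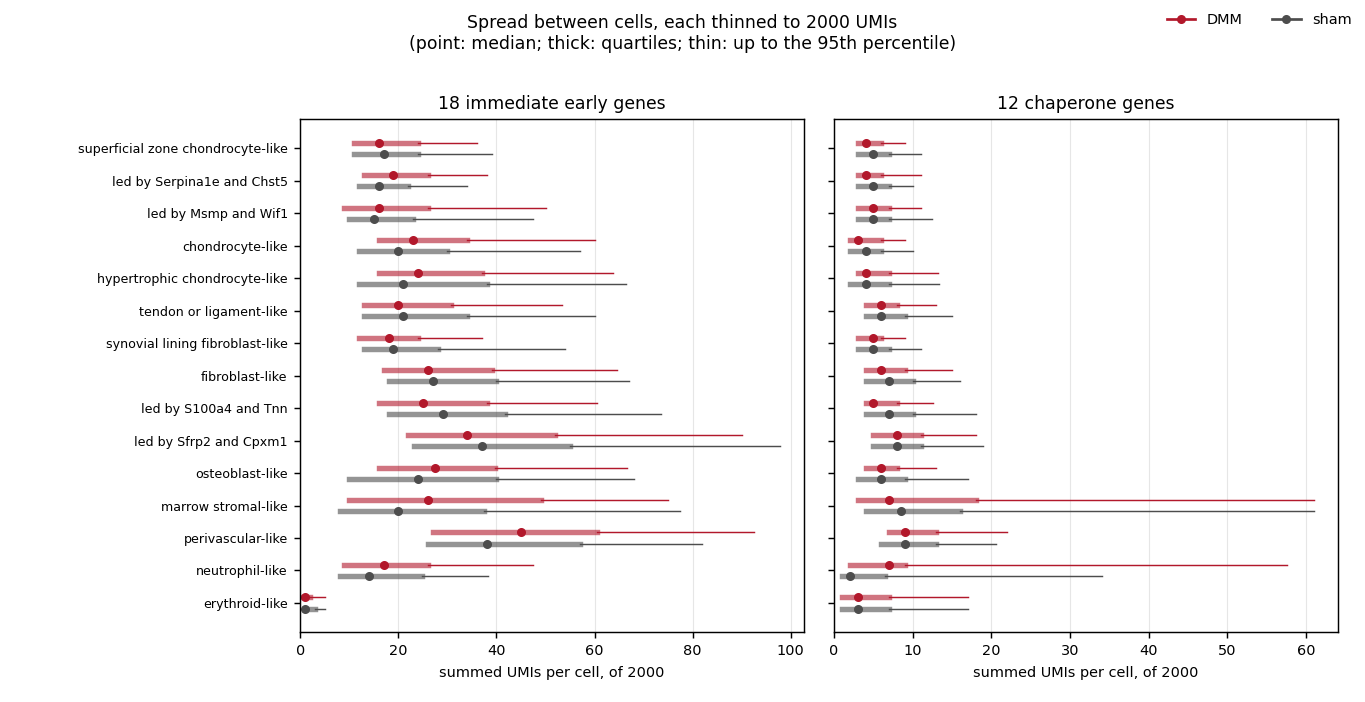
Summed UMIs per cell of the 18 immediate early genes (left) and the 12 chaperones (right) after thinning each cell to 2000 UMIs, DMM in red above sham in grey. Points are medians, thick lines quartiles and thin lines reach the 95th percentile, and the chaperone sum of marrow stromal-like cells reaches 61 with a median of 7 in DMM and 8.5 in sham.

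Over 35 sums of connective tissue clusters by library, the 2 groups did not separate cleanly within connective tissue. Pearson's r of log2(CPM + 10) had a median of 0.328 over the 153 pairs of immediate early genes, 0.321 over the 66 pairs of chaperones and 0.214 over the 216 pairs between the groups. The points share libraries and are not independent, so no p-value is given. The closest pairs were Fosb with Egr1 and Hspa1a with Hspa1b, both at 0.945. Nr4a1 followed Hspa8 at 0.845, and Btg2 followed Dnajb1 at 0.782, each across the groups. Egr3 (median r of -0.097 with the other immediate early genes), Klf4 (-0.105), Cryab (-0.168 with the other chaperones), Hspe1 (0.006) and Dnajb1 (0.029) did not go with their own group. Over the sums of all clusters (45 points), which add the erythroid-like, neutrophil-like and other clusters outside connective tissue, the median was 0.843 over immediate early pairs, 0.455 over chaperone pairs and 0.196 between the groups.

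Among 3491 genes outside all lists, those most like the mean of the immediate early genes over the 35 points included Pnrc1 (r of 0.899), Midn (0.880), Ifrd1 (0.832) and Irs2 (0.823). Those most like the mean of the chaperones were Lpl (0.885), Pdgfrb (0.877), Usp25 (0.875), Mapkapk2 (0.868) and Rab8b (0.863). Lpl is itself in the marker list that named the marrow stromal-like cells. Those cells were the highest connective population for 9 of the 12 chaperones in DMM and 6 in sham.

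**Figure D4:**
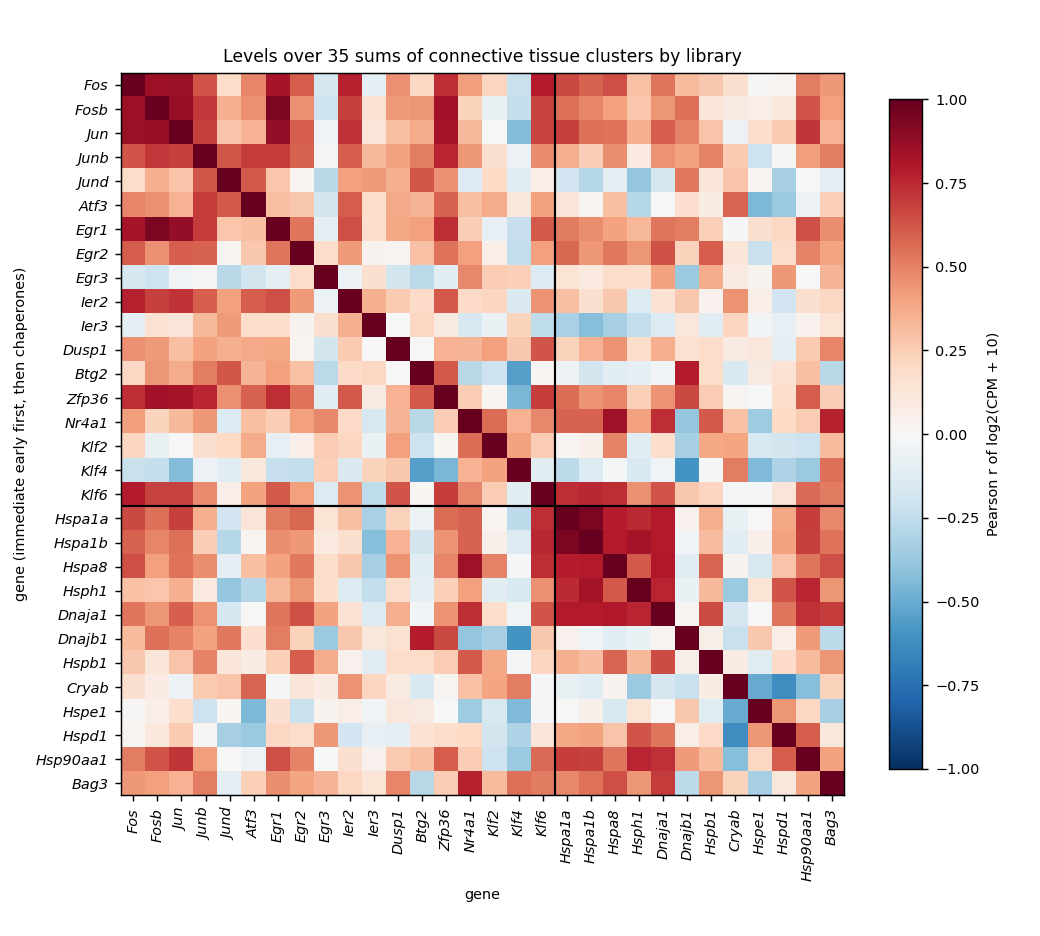
Pearson's r between the levels of the 30 genes over 35 sums of connective tissue clusters by library, on a log2(CPM + 10) scale, red for positive and blue for negative. The immediate early genes fill the upper left block and the chaperones the lower right, and the rows of Egr3, Klf4, Cryab and Hspe1 stand out as pale or blue within their own block.

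In superficial zone chondrocyte-like cells, Egr1, Egr2 and Hspa1b were lower in DMM by at least 1.5-fold and no member was higher by that much. All 30 members had the 50 UMIs required. Log2 ratios of DMM over sham had a median of -0.24 over the 18 immediate early genes and -0.22 over the 12 chaperones, against -0.21 over all 9983 genes measured. Of all genes, 3.11% were at least 1.5-fold higher and 18.2% at least 1.5-fold lower, so 2 of 18 immediate early genes and 1 of 12 chaperones lower is no more than the background. That background counts every gene from 50 UMIs upward by fold alone, so counting error moves many of its genes more than most members (Fos had 6371 UMIs). The same limit holds for the shares of all genes given below. Fos was at 381 CPM in DMM and 562 CPM in sham, a log2 ratio of -0.56 (95% counting interval -0.64 to -0.49). Egr1 had a log2 ratio of -0.60 (95% counting interval -0.68 to -0.52). Egr2 was at 5.80 CPM in DMM and 13.7 CPM in sham, from 35 UMIs in DMM and 99 in sham, a log2 ratio of -1.23 (95% counting interval -1.83 to -0.66). Hspa1b was at 16.4 CPM in DMM and 37.9 CPM in sham, a log2 ratio of -1.21 (95% counting interval -1.55 to -0.87). Hspe1, on the other side, had a log2 ratio of 0.49 (95% counting interval 0.37 to 0.61).

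The Serpina1e-led cluster (1037 DMM and 707 sham cells), whose best-scoring marker list was also that of the superficial zone but under the naming score, had other directions. Fos was at 695 CPM in DMM and 607 CPM in sham there, a log2 ratio of 0.20 (95% counting interval 0.14 to 0.25), and Egr1 at 639 CPM in DMM and 551 CPM in sham, a log2 ratio of 0.21 (95% counting interval 0.16 to 0.27). With both populations joined, the median over the immediate early genes became 0.00 and the log2 ratio of Egr1 0.02, so these directions depend on where the class is drawn. The joined ratios also carry a difference in cell shares. The Serpina1e-led cluster gave 1037 of 1751 joined DMM cells and 707 of 1621 joined sham cells, and its Fos and Egr1 levels were higher in both libraries. What this share adds was not tested. Over 14 alternatives in all, Egr1 was past 1.5-fold in 6 in the superficial class, and Hspa1b in 14. Egr2 was past it in 11 of the 12 alternatives in which it had enough UMIs. Cryab had its highest connective ratio in the Serpina1e-led cluster, at 371 CPM in DMM and 169.6 CPM in sham, a log2 ratio of 1.13 (95% counting interval 1.04 to 1.22). In superficial zone chondrocyte-like cells its log2 ratio was 0.39, but ran from -0.46 to 1.01 over the 14 alternatives and kept its sign in 11.

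In chondrocyte-like cells, Klf2 was higher and Egr2 and Hsph1 were lower in DMM by at least 1.5-fold. The median log2 ratio was 0.10 over the 18 immediate early genes and -0.13 over the 12 chaperones, against -0.16 over all 12909 genes measured. Of all genes, 1.53% were at least 1.5-fold higher and 9.86% at least 1.5-fold lower, against 1 higher and 1 lower of 18 immediate early genes and 0 higher and 1 lower of 12 chaperones. Egr2 was at 9.67 CPM in DMM and 14.8 CPM in sham, a log2 ratio of -0.62 (95% counting interval -0.91 to -0.33), which was -0.52 without the top cell of each library and -0.45 with median-of-ratios scaling. Hsph1 was at 34.8 CPM in DMM and 55.6 CPM in sham, a log2 ratio of -0.67 (95% counting interval -0.82 to -0.53), which was -0.51 with that scaling. Fos, in contrast to the superficial zone, was at 1436 CPM in DMM and 1130.2 CPM in sham, a log2 ratio of 0.34 (95% counting interval 0.32 to 0.37). Jund was at 2607 CPM in DMM and 2096 CPM in sham, a log2 ratio of 0.32 (95% counting interval 0.30 to 0.33).

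Genes with short spans had higher ratios than long ones. Over all genes the log2 ratio ran against the gene's genomic span (GENCODE vM21), with rho of -0.51 in superficial zone chondrocyte-like and -0.48 in chondrocyte-like cells, a description across genes that are not independent. Genes of up to 10 kb had a median of 0.17 in superficial zone chondrocyte-like cells and 0.10 in chondrocyte-like cells. By annotated span, 15 of 18 immediate early genes and 7 of 12 chaperones are that short. Dusp1, with an annotated span of 56539 bases, is not among the 15. Its printed promoter lies close to the 3′ end of that span, and from that start Dusp1 is within 10 kb. The immediate early median of 0.10 in chondrocyte-like cells equals that of short genes, while -0.24 in superficial zone chondrocyte-like cells lies below it. The part of gene span in these ratios was not tested.

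Across the 13 connective populations, 3 immediate early genes were higher in DMM almost everywhere. Jund was above its sham level in 13 of 13 populations, with log2 ratios from 0.14 in fibroblast-like to 0.55 in osteoblast-like cells. Dusp1 was above in 13 of 13, from 0.02 in the S100a4-led cluster to 0.79 in osteoblast-like cells (435 CPM in DMM and 251 CPM in sham), and passed 1.5-fold in 2. Osteoblast-like sums join clusters whose cell shares differed between the libraries. Klf2 was above in 12 of 13, passed 1.5-fold in 4 (9 with median-of-ratios scaling), and reached 0.89 in marrow stromal-like cells (603 CPM in DMM and 325 CPM in sham). Of the 5181 genes measured in all 13 populations, 12.3% were above 0 in every one, and 6.22% passed 1.5-fold higher in 3 or more. Jund and Klf2 are genes of up to 10 kb by annotated span, and Dusp1 is when measured from its printed promoter. The median of such genes was above 0 in all 13 populations, from 0.10 in chondrocyte-like to 0.41 in marrow stromal-like cells. It was 0.26 in fibroblast-like cells, above Jund there, and 0.25 in osteoblast-like cells, below Jund there. With median-of-ratios scaling, which moved every ratio of a population up by 0.05 to 0.21, Jund, Dusp1, Klf2 and Ier2 were above 0 in 13 of 13.

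Egr2 went the other way. It was lower in DMM in 12 of 13 populations and past 1.5-fold in 8 (5 with median-of-ratios scaling), with its lowest log2 ratio in the Msmp-led cluster, -1.35 (95% counting interval -2.04 to -0.71), from 26 UMIs in DMM and 90 in sham. Btg2 was lower in 11 of 13 and past 1.5-fold in 3: tendon or ligament-like cells (156 CPM in DMM and 277 CPM in sham), the S100a4-led cluster (129.8 CPM in DMM and 223 CPM in sham) and osteoblast-like cells (143 CPM in DMM and 234 CPM in sham). Of the 5181 genes measured in all 13 populations, 23.2% were below 0 in every one, and 6.97% passed 1.5-fold lower in 6 or more. Fos was above 0 in 6 populations and below in 7, from -0.56 in superficial zone chondrocyte-like to 0.34 in chondrocyte-like cells, and passed 1.5-fold in none. Fosb was past 1.5-fold only in synovial lining fibroblast-like cells, at 422 CPM in DMM and 687 CPM in sham, a log2 ratio of -0.70 (95% counting interval -0.77 to -0.63). In those cells 14 of 18 immediate early genes were below 0. Their median log2 ratio was -0.39, against -0.10 over all genes and 0.25 over genes of up to 10 kb. In marrow stromal-like cells 15 of 18 were above 0, with a median log2 ratio of 0.22, against -0.05 over all genes and 0.41 over genes of up to 10 kb. They were led by Ier2 at 355 CPM in DMM and 178 CPM in sham and Ier3 at 401 CPM in DMM and 210.0 CPM in sham. In all, 10 of 233 immediate early values were at least 1.5-fold higher (4.29%) and 19 at least 1.5-fold lower (8.15%), against 5.16% higher and 13.1% lower among the values of all genes. With median-of-ratios scaling the balance turned: 19 of 233 were higher (8.15%) and 10 lower (4.29%), against 8.84% higher and 7.98% lower among all genes.

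Among the chaperones, the inducible Hsp70 genes and Hsph1 were lower in DMM nearly everywhere, while Hspa8 stayed within 1.5-fold in all 13 populations (-0.26 to 0.24) and the small and mitochondrial chaperones split. Hsph1 was lower in 13 of 13 populations and past 1.5-fold in 6 (3 with median-of-ratios scaling), down to -1.11 in the Msmp-led cluster. Hspa1a was lower in 12 of 13 and past 1.5-fold in 6 (4 with that scaling), and Hspa1b likewise in 12 and 6 (5 with that scaling). Synovial lining fibroblast-like cells had Hspa1a at 66.4 CPM in DMM and 145 CPM in sham, a log2 ratio of -1.13 (95% counting interval -1.30 to -0.96), and hypertrophic chondrocyte-like cells a log2 ratio of -1.27 (95% counting interval -1.55 to -0.99). In perivascular-like cells Hspa1a had a log2 ratio of 0.33 (95% counting interval 0.13 to 0.53), the exception. Of the 5181 genes, 6.97% passed 1.5-fold lower in 6 or more populations and 23.2% were below 0 in all 13. Dnaja1 and Hsp90aa1 were below 0 in 13 of 13 as well, with medians of -0.17 and -0.13, but in only 10 and 7 of 13 with median-of-ratios scaling. Single cells weighed on some values: in the Msmp-led cluster 27.7% of the sham Hspa1a UMIs came from 1 cell, and its log2 ratio of -0.93 was -0.54 without the top cell of each library.

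Hspe1 and Hspd1, which share promoter bases and heat shock elements (printed above), had ratios of opposite sign in most populations. Hspe1 was higher in DMM in 12 of 13 populations, up to 0.69 in synovial lining fibroblast-like cells (231 CPM in DMM and 143 CPM in sham). Hspd1 was lower in 11 of 13, with a median log2 ratio of -0.25, against 0.38 for Hspe1. Hspe1 spans 3176 bases and Hspd1 10409 bases. The S100a4-led cluster had the lowest ratios of both, with log2 values of -0.67 for Hspe1 and -1.51 for Hspd1. In its 150 sham cells, 1 cell held 21.5% of the Hspe1 UMIs, and without the top cells the log2 ratios were -0.40 and -1.12. Cryab was higher in 9 of 13 populations and past 1.5-fold in 3: the Serpina1e-led cluster, the S100a4-led cluster (334 CPM in DMM and 176 CPM in sham) and osteoblast-like cells (293 CPM in DMM and 194 CPM in sham). Hspb1 was past 1.5-fold in marrow stromal-like cells only, at 1643 CPM in DMM and 691 CPM in sham, a log2 ratio of 1.25 (95% counting interval 1.13 to 1.37), or 1.14 without the top cells. In all, 6 of 156 chaperone values were at least 1.5-fold higher (3.85%) and 21 at least 1.5-fold lower (13.5%), against the same 5.16% and 13.1% over all genes. With median-of-ratios scaling 10 were higher (6.41%) and 13 lower (8.33%), against 8.84% and 7.98%. What the surgery and what the preparation of each library adds to these ratios cannot be told apart.

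By population, the S100a4-led cluster (510 DMM and 150 sham cells) held the most members past 1.5-fold. There 11 of 30 were lower (Egr2, Egr3, Btg2, Zfp36, Nr4a1, Hspa1a, Hspa1b, Hsph1, Dnaja1, Hspe1 and Hspd1), against 17.2% of all genes, and Cryab was higher, against 8.87%. Without the top cell of each library, Egr3, Nr4a1 and Hspe1 were no longer past 1.5-fold there. Marrow stromal-like cells had the most members higher, with 6 of 30 (Atf3, Ier2, Ier3, Klf2, Hspb1 and Hspe1), against 11.3% of all genes, and Hspa1b and Hsph1 lower, against 12.0%. Atf3 was within 1.5-fold there without the top cells. In synovial lining fibroblast-like cells Fosb, Egr2, Egr3, Klf6, Hspa1a and Hspa1b were lower, against 12.9% of all genes, and Hspe1 was higher, against 6.52%. In the Msmp-led cluster Egr2, Egr3, Hspa1a, Hspa1b and Hsph1 were lower, against 15.4%, and Klf2 was higher, against 4.32%. Hypertrophic chondrocyte-like cells had Egr2, Hspa1a, Hspa1b and Hsph1 lower, against 14.6%, and Klf2 higher, against 2.04%. Osteoblast-like cells had Btg2, Hspa1a and Hsph1 lower, against 16.6%, and Dusp1 and Cryab higher, against 6.28%. Without the top cells, Klf6 in synovial lining fibroblast-like cells, Klf2 in hypertrophic chondrocyte-like cells, Cryab in osteoblast-like cells and Hspa1a in the Msmp-led cluster came to lie within 1.5-fold. Other chaperone values came to lie past it, and Hspa1b was then lower in 7 populations. Without the top cells 6 of 156 chaperone values were higher and 21 lower, the same totals as with all cells. Of 233 immediate early values, 8 were then higher and 15 lower.

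The remaining connective populations held few. Tendon or ligament-like cells had Btg2 and Hspa1a lower (11.4% of all genes lower, 5.35% higher). The Sfrp2-led cluster had Egr2 lower and Dusp1 higher (13.7% lower, 3.82% higher). Fibroblast-like cells had Egr2 lower (9.67% lower, 7.12% higher), perivascular-like cells had Egr3 higher (10.6% lower, 7.15% higher) and the Serpina1e-led cluster had Cryab higher (10.0% lower, 4.16% higher).

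**Figure D5:**
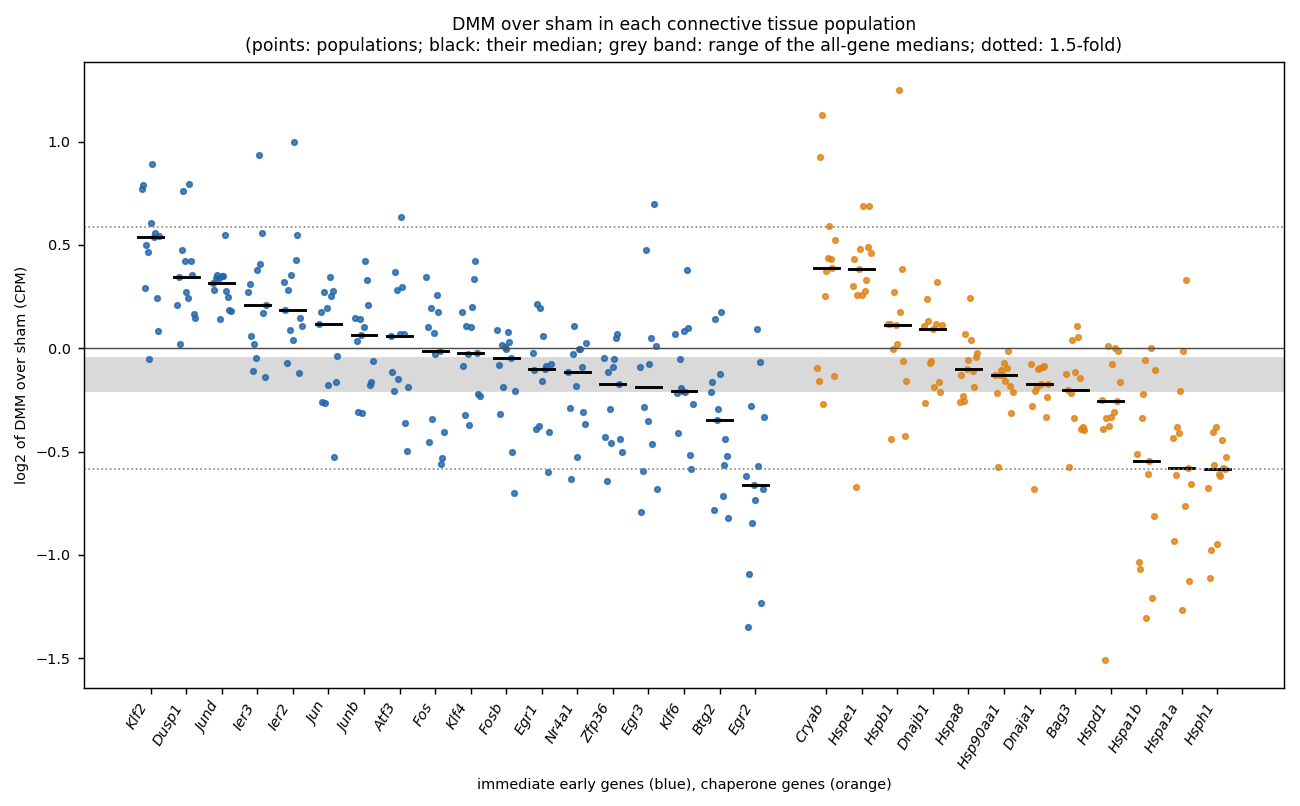
Log2 ratio of DMM to sham of each gene (horizontal) in each of the 13 connective tissue populations (points), with the median in black, immediate early genes in blue and chaperones in orange. The grey band spans the medians of all genes (-0.21 to -0.05), dotted lines mark 1.5-fold, and Klf2, Dusp1, Jund, Cryab and Hspe1 lie high while Egr2, Hspa1a, Hspa1b and Hsph1 lie low.

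Related genes outside the 30 were described in the same way, to be read against the shares of all genes already given: 3.11% higher and 18.2% lower in superficial zone chondrocyte-like cells, and 1.53% higher and 9.86% lower in chondrocyte-like cells. The lists are short, and nothing particular to a list is read from its count. Of 46 other immediate early and rapid response genes, 40 were measured in superficial zone chondrocyte-like cells, where 0 were at least 1.5-fold higher and 7 lower, with a median log2 ratio of -0.21. The lowest were Plk2, a polo-like kinase (1.99 CPM in DMM and 8.27 CPM in sham), Ier5l (9.62 CPM in DMM and 23.4 CPM in sham) and Myc, a growth regulator (7.63 CPM in DMM and 16.1 CPM in sham). In chondrocyte-like cells 0 of 44 were higher and 4 lower, again with Plk2 (2.12 CPM in DMM and 7.48 CPM in sham) first, then Dusp6, a phosphatase of ERK (2.32 CPM in DMM and 4.96 CPM in sham), and Ier5l (7.22 CPM in DMM and 11.4 CPM in sham). Of 15 upstream regulators, 4 were lower in superficial zone chondrocyte-like cells, among them Srf, the serum response factor (4.14 CPM in DMM and 7.45 CPM in sham) and Creb1, the CREB factor (40.9 CPM in DMM and 66.3 CPM in sham), and 1 in chondrocyte-like cells, the kinase Mapk9 (14.8 CPM in DMM and 23.8 CPM in sham). Their medians were -0.48 in superficial zone chondrocyte-like and -0.34 in chondrocyte-like cells.

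Of 43 other chaperones and cochaperones, 39 were measured in superficial zone chondrocyte-like cells, with a median log2 ratio of 0.02. There Hspb6, a small heat shock protein, was higher (9.28 CPM in DMM and 6.07 CPM in sham). The Hsp40 proteins Dnaja4 (21.9 CPM in DMM and 36.5 CPM in sham) and Dnajb4 (66.1 CPM in DMM and 101.2 CPM in sham) and Hspa4l, a relative of Hsph1 (44.4 CPM in DMM and 66.7 CPM in sham), were lower. In chondrocyte-like cells 0 of 42 were higher and 2 lower, Hspa4l (10.9 CPM in DMM and 16.7 CPM in sham) and Dnajb5 (1.92 CPM in DMM and 3.14 CPM in sham). The heat shock factors and their regulator, 3 genes, had no ratio past 1.5-fold in either population.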

How the data were processed

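Single-cell RNA-seq of sorted knee joint cartilage cells (10x Genomics 3′ libraries) was used from 1 DMM and 1 sham library of 3 pooled mice each. The authors deposited matrices of whole UMI counts, made with Cell Ranger 7.1.0, per the file headers. The submitters' processing notes name Cell Ranger 3.0.1 and the mm10 build, and the difference is not explained in the sources used here. A bulk count table of the series has 6 columns that could not be tied to any sample, and they were not used.

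Cells were required to show 500 or more genes and no more than 10% mitochondrial UMIs, and Scrublet doublets were removed (360 in DMM, 463 in sham). Both libraries were clustered together without batch correction with scanpy 1.11.5 (2000 variable genes without any listed gene, 30 components, 15 neighbours, Leiden resolution 1.0). Clusters were named from 22 marker lists where the score reached 0.75, at least 3 markers were detected and no other list had more markers among the 10 leading genes. A cluster of low depth with no marker of its list among these stayed unnamed. Named connective classes, and unnamed clusters in which at least 50% of cells held Serpinh1, counted as connective tissue.

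UMIs were summed per population and library. A gene was measured with at least 50 UMIs over both libraries and called at 1.5-fold. Intervals are 95%: exact Poisson for levels and exact conditional binomial for ratios. They cover counting error only. For cell sums, each cell was thinned to 2000 UMIs (seed 1). With 1 library per group, no test between groups was made, and the pooled mice are not replicates. Total depth was 97346999 UMIs in DMM and 106799078 UMIs in sham.

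The members, the gene lists and the marker lists were chosen with earlier results of these data known. Outside the 30 members, the genes named are up to 3 per list and direction, those with the largest ratios past 1.5-fold, and the 5 genes most like each group's mean level, and 2 genes that meet these rules are not reported here. Each of the 2 main classes had 14 alternatives, 1 of them added after seeing the data, as were the scalings and the removal of top cells across all connective populations. Computation used Python 3.11.15 and scipy 1.17.1.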

Additional observations from a re-analysis of the deposited data

Results flagged for a closer look

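Egr3 and Hspe1 were past 1.5-fold in opposite directions in different connective tissue populations. Egr3 was at 45.0 CPM in DMM and 27.8 CPM in sham perivascular-like cells, a log2 ratio of 0.70, and at 35.2 CPM in DMM and 60.9 CPM in sham in the Msmp-led cluster, a log2 ratio of -0.79. Hspe1 was at 230.9 CPM in DMM and 143 CPM in sham synovial lining fibroblast-like cells, a log2 ratio of 0.69, and at 207 CPM in DMM and 330 CPM in sham in the S100a4-led cluster, a log2 ratio of -0.67. Without the top cell of each library the value of Hspe1 in that cluster was -0.40. With 1 library per group, these differences between populations were not tested, and these pairs were picked out from 13 populations by 30 genes.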

How the results depend on the processing

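No paired analysis was possible because each group holds 1 library. Over 14 alternatives for each class (13 planned and 1 added after seeing the data), the values of the 30 members in superficial zone chondrocyte-like cells came to 418, of which 295 stayed within the counting interval, 122 moved beyond it and 1, past 1.5-fold in the reported setting, changed direction. That one is Egr1, with a log2 ratio of 0.0192 when the class was joined with the Serpina1e-led cluster, whose share of the joined cells differed between the libraries. In chondrocyte-like cells 420 values came out, 334 within the interval and 86 beyond it. Counting also ratios within 1.5-fold, 13 of 30 members in superficial zone chondrocyte-like and 10 of 30 in chondrocyte-like cells changed sign under at least 1 alternative, Cryab in both. With median-of-ratios scaling, the chaperone median in superficial zone chondrocyte-like cells moved to -0.0135, and the chaperone median in chondrocyte-like cells took the other sign at 0.04, since this scaling moves every ratio of a population up by 0.05 to 0.21. Over all alternatives, the immediate early median ran from -0.27 to 0.00 in superficial zone chondrocyte-like and from 0.08 to 0.26 in chondrocyte-like cells. More immediate early genes were higher in chondrocyte-like than in superficial zone chondrocyte-like cells under every setting tried for levels (13 or 14 of 18), which was 4 to 6 of 12 for the chaperones. Depth limits Egr2 and Egr3 most, and the marrow stromal-like and S100a4-led populations, which have 114 DMM and 150 sham cells at their smallest.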
